A study of Prunus persica with 4 samples.

Results

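The candidates miRC26, miRC130, miRC172 and miRC177 form a family of similar hairpins among the peach-specific miRNA candidates of Prunus persica cv. Lovell. They were chosen by their listed sequences and counts: miRC26, miRC130 and miRC172 carry the same 22-nt sequence on the 5′ arm (5p), and miRC177 carries the same 22-nt sequence on the 3′ arm (3p) as the other 3. They are 4 of the 186 candidate precursors in the deposited table and hold 2 of its 191 distinct arm sequences. The sharing of these sequences and their abundance were therefore known from the choice and are given as a description. The reads came from 1 small RNA library, made from low molecular weight RNA. Young leaves, flower buds and young stems had been mixed for it before sequencing. The trees were grown in a garden and were not treated. No value can be given to one tissue, and with 1 library no value has a replicate error. The 3 degradome libraries, of leaf, stem and flower, were not analysed here.

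Plant miRNAs are cut by a Dicer-like enzyme from a transcript that folds back on itself. The cut releases a short duplex of 2 strands, the miRNA and the strand opposite it (miRNA*), whose 3′ ends each extend past the partner. As a rule 1 strand is loaded into an ARGONAUTE protein and guides it to complementary transcripts, while the other is mostly degraded. In Arabidopsis, strands that start with uracil are preferred by AGO1, and 22-nt miRNAs are known for setting off the production of secondary small RNAs from their targets. Whether this family acts in such a way was not measured.

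The arm sequences are shown first because nearly all reads of the family are on them. They are written 5′ to 3′ in DNA letters as deposited, with bases 2 to 8 in capitals.
5p of miRC26, miRC130 and miRC172: tCCGGATTgtttagtgtgcgga
3p of miRC26, miRC130, miRC172 and miRC177: cGCATGCTaaacaatccggaca
The 4 deposited precursors follow, with the listed 5p and 3p sequences in capitals, so that the bases the loci share and those they do not can be compared.
miRC26: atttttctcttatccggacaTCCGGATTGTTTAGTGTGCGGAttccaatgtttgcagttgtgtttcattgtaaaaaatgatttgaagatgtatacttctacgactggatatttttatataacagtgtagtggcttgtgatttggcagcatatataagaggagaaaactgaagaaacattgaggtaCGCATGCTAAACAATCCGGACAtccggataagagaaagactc
miRC130: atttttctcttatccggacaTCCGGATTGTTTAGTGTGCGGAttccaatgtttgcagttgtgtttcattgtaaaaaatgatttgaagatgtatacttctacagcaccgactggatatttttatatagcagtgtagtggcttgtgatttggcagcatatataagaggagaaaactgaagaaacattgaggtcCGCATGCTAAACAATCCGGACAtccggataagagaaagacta
miRC172: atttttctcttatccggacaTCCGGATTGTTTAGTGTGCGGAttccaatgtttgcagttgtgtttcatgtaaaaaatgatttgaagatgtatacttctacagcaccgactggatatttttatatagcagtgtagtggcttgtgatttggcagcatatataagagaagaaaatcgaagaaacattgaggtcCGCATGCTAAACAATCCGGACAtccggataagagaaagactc
miRC177: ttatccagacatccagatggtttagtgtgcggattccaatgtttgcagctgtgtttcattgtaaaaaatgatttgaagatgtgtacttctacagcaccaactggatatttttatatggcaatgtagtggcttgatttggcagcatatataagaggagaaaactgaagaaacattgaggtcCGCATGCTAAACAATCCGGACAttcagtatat

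The 4 loci lay on 4 scaffolds. Coordinates follow the deposited table, with the first base of a scaffold as 1, and the version of the peach genome is not given in the sources used here. miRC26 spanned scaffold 1 from 2565497 to 2565723 on the minus strand, 227 nt, with its 5p sequence from 2565682 to 2565703 and its 3p sequence from 2565517 to 2565538. miRC130 spanned scaffold 5 from 316917 to 317149 on the minus strand, 233 nt, with its 5p sequence from 317108 to 317129 and its 3p sequence from 316937 to 316958. miRC172 spanned scaffold 7 from 10583757 to 10583988 on the minus strand, 232 nt, with its 5p sequence from 10583947 to 10583968 and its 3p sequence from 10583777 to 10583798. miRC177, on the plus strand, spanned scaffold 8 from 1141875 to 1142086, 212 nt, with its 3p sequence from 1142055 to 1142076. None of the members lay beside another, and the nearest candidate of any kind was 6325 nt from miRC177, 350787 nt from miRC130, 677614 nt from miRC172 and 1001586 nt from miRC26. Genes at these positions were not looked up, because no annotation of the same genome version was used here.

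Nearly all reads of the family were on the 5p sequence, and the counts at miRC26, miRC130 and miRC172 were almost the same. The 5p sequence had 532 raw reads at each of these 3 loci. The 3p sequence, which all 4 precursors contain once, had 21 reads at miRC26 and 22 reads each at miRC130, miRC172 and miRC177. For miRC177 no 5p sequence was listed. The total on the precursor was 563 reads at miRC26, 564 at miRC130, 564 at miRC172 and 23 at miRC177. The precursor total exceeded the reads on the listed sequences by 10 at each of the first 3 loci. This is 1.78% of the reads at miRC26 (95% Wilson interval 0.968 to 3.24%) and 1.77% at miRC130 and at miRC172 (interval 0.966 to 3.23%). The excess was 1 read at miRC177. Where these reads lie on the precursor is not given, and they may overlap the listed sequences. Because the sequences are the same, the counts cannot show which locus produced a read, and they are not separate measurements. The same 3p sequence is nevertheless listed with 21 reads at miRC26 and 22 at the other loci. The sources used here do not say which read variants a count includes, and the reason for this difference was not tested.

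**Figure D1:**
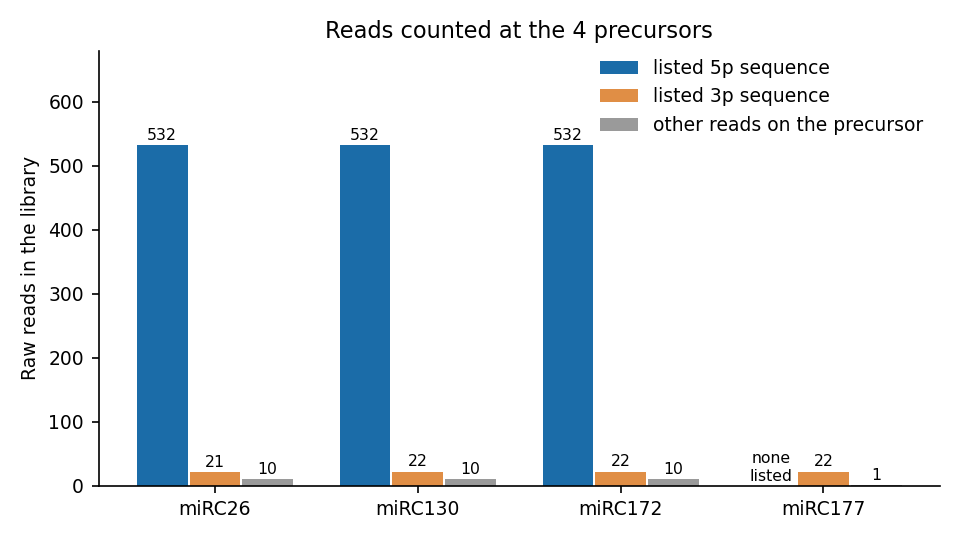
Raw reads in the library (vertical axis) for the listed 5p sequence, the listed 3p sequence and the remaining reads of each precursor, with the counts printed above the bars. The 5p bars stand at 532 reads for miRC26, miRC130 and miRC172, the 3p bars at 21 or 22 reads for all 4 loci, and no 5p sequence is listed for miRC177.

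Summed over the loci, the listed sequences of the family had 1683 reads, or 10.9% of the 15451 reads on all listed sequences. This sum enters the reads of a shared sequence at several loci, so no interval is given for it. With each distinct sequence counted once, at its highest count, the family had 554 of 12570 reads, or 4.41% (95% Wilson interval 4.06 to 4.78%). The interval covers counting error only, since reads of an amplified library are not independent molecules. Ordered by reads, the 5p sequence was the 6th of 153 distinct most abundant sequences. The sequence just above it belonged to miRC140 with 558 reads, and the one just below it, listed for miRC126 and miRC144, had 509 reads. Among the 12 distinct most abundant sequences of 22 nt it was the 2nd, after miRC162 with 1035 reads, and the median of those 12 was 21.5 reads. These 12 include the 5p sequence itself and, through miRC177, the 3p sequence with 22 reads. The 5p sequence was 1 of 8 among them that started with uracil, and the 3p sequence started with cytosine.

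The 3p sequence was the minor strand at every locus that listed both. Of the reads on both arms, it had 3.80% at miRC26 (95% Wilson interval 2.50 to 5.74%) and 3.97% at miRC130 and at miRC172 (interval 2.64 to 5.94%). These shares rest on the same 2 sequences and were not compared with each other. In the 43 other candidates with both arms listed, a median of 8.33% of the reads was on the minor strand, with values from 0.171% to 44.2%. Most of those candidates had few reads and wide intervals. Among the 7 others with at least 500 reads on both arms, a limit chosen after the counts were seen, the share ran from 0.171% to 7.41%. It was below the family in 4 and above it in 3, of which miRC16 and miRC17 list the same most abundant sequence and are not separate values. miRC140, next to the family in reads, had 6.69% (interval 4.95 to 8.98%), an interval that overlapped those of the family. miRC126 had 0.391% (interval 0.107 to 1.42%), below the intervals of the family.

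**Figure D2:**
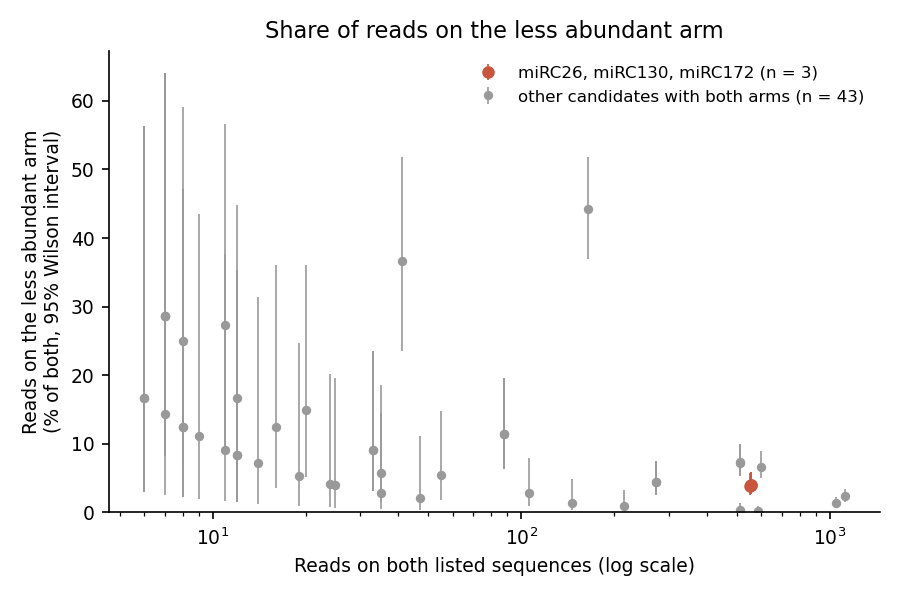
Share of reads on the less abundant arm (vertical axis, % of the reads on both listed sequences, with 95% Wilson intervals) against the reads on both sequences (horizontal log axis), for miRC26, miRC130 and miRC172 and for the 43 other candidates with both arms. The 3 points of the family, at 553 or 554 reads and 3.80 to 3.97%, nearly coincide, and the intervals are wide for candidates with few reads.

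The precursors of miRC26, miRC130 and miRC172 were alike along their whole length. Their arm sequences were the same by the choice, so differences could fall only between the arms or in the flanks. Most lay between the arms. In global alignments in which a gap counts as a difference, miRC130 and miRC172 were identical in 97.9% of columns, miRC26 and miRC130 in 96.1%, and miRC26 and miRC172 in 94.8%. Substitutions are written with the base of miRC130, its position from the 5′ end of that precursor, and the base of the other member. miRC172 differed from miRC130 by G166A, C173T, T174C and A233C and by 1 missing base at position 68 or 69. miRC26 differed by G127A, C191A and A233C and by 6 missing bases. Thus 4 of 5 differing columns in miRC172 and 8 of 9 in miRC26 fell in the 149 nt between the arms. In each, the other was the last base of the precursor. The stretch between the arms holds most of the bases that were free to differ, since each flank has 20 nt. The 20 nt before the 5p sequence did not differ between these 3 loci.

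The 6 bases missing from miRC26 are present in the other 3 members, and the window around them is shown with these bases in capitals. The gap can stand at positions 101 to 106 of miRC130 or 1 base further on.
miRC26, bases 89 to 112: tgtatacttctacgactggatatt
miRC130, bases 89 to 118: tgtatacttctaCAGCACcgactggatatt
miRC172, bases 88 to 117: tgtatacttctaCAGCACcgactggatatt
miRC177, bases 80 to 109: tgtgtacttctaCAGCACcaactggatatt
The stretch thus separates miRC26 from the rest of the family, although miRC26 shares both arm sequences with miRC130 and miRC172.

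**Figure D3:**
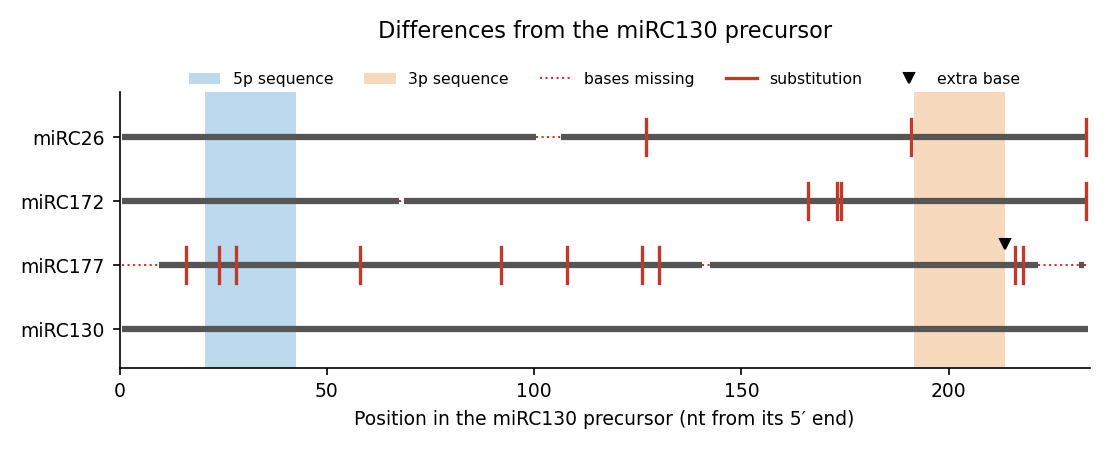
Differences of miRC26, miRC172 and miRC177 from the miRC130 precursor (lowest line), by position in miRC130 in nt from its 5′ end. Red ticks are substitutions, dotted gaps are missing bases and the triangle is an extra base. The shaded 5p and 3p sequences hold no tick in miRC26 or miRC172, where they are the same by the choice. The 5p shading holds 2 ticks in miRC177.

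miRC177 was the most divergent member. Over whole precursors it was identical to miRC130 in 85.9% of columns, to miRC172 in 84.2% and to miRC26 in 82.9%. Of the 33 columns in which it differed from miRC130, 7 lay between the arms and 2 in the 5p sequence, and the others were at the ends. The deposited miRC177 precursor has 10 nt after its 3p sequence and 11 nt before the counterpart of the 5p sequence, where the other members have 20 nt on each side. From the 5p sequence or its counterpart to the end of the 3p sequence, a stretch of 191 nt in miRC177, it was identical to miRC130 in 95.3% of columns, to miRC172 in 93.3% and to miRC26 in 91.7%. Between the arms it differed from miRC130 by T58C, A92G, G108A, A126G and G130A and by 2 missing bases.

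In miRC177 the stretch that faces the 3p sequence differs from the 5p sequence of the other members at 2 positions. It lies on scaffold 8 from 1141886 to 1141907, bases 12 to 33 of the precursor, and the differing bases are in capitals.
5p of miRC26, miRC130 and miRC172: tccGgatTgtttagtgtgcgga
miRC177, facing stretch: tccAgatGgtttagtgtgcgga
Counted from the 5′ end of the 5p sequence, the substitutions are G4A and T8G, and both fall within bases 2 to 8. No read was listed for this stretch. Both changed bases were unpaired in the deposited structure of miRC177, as were the bases that face them, at positions 13 and 17 of its 3p sequence. The other 20 bases of the stretch were paired.

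In miRC26, miRC130 and miRC172 the 2 arm sequences formed a duplex of 20 base pairs, of which 18 were Watson-Crick pairs and 2 were G-U pairs. The 3′ end of each arm sequence extended past the 5′ end of the opposite one by 2 nt, on both sides of the duplex. The counterpart duplex of miRC177 had 18 pairs, 16 of them Watson-Crick, with the same offsets of 2 nt. The energy of the duplex, computed with RNAcofold, was -34.0 kcal/mol for the arm sequences of miRC26, miRC130 and miRC172 and -23.6 kcal/mol for the facing stretch of miRC177 with its 3p sequence. A 3′ offset of 2 nt at both ends was also present in 38 of the 43 other candidates with both arms, so it was common in the table. These 43 had 15 to 20 pairs between the arms, with a median of 17, and miRC88 also had 20. Without the G-U pairs the family did not lead, since 7 of the 43 had more than 18 Watson-Crick pairs, and 3 of the 43 had no unpaired base in either arm sequence. The pairs were not scaled to the length of the arms.

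The 5p sequence was fully paired in miRC130 and miRC172 and had 1 unpaired base, at position 21, in miRC26. Among the 182 other candidates the most abundant sequence had a median of 3 unpaired bases and none in 12. The base that faces position 21 lies just before the 3p sequence and is the site of C191A, so it is the substituted base in miRC26. The longest unbroken run of pairs was 23 bp in miRC130 and in miRC172, 20 bp in miRC26 and 15 bp in miRC177, where the unpaired positions 4 and 8 of the facing stretch lie outside that run. In the other candidates the longest run had a median of 11 bp and reached 46 bp. The fold did not end at the arms. Towards the ends of the precursor a further 17 pairs, from base 2 to base 18, closed the hairpin in miRC26, miRC130 and miRC172, against 2 pairs in the shorter flank of miRC177.

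**Figure D4:**
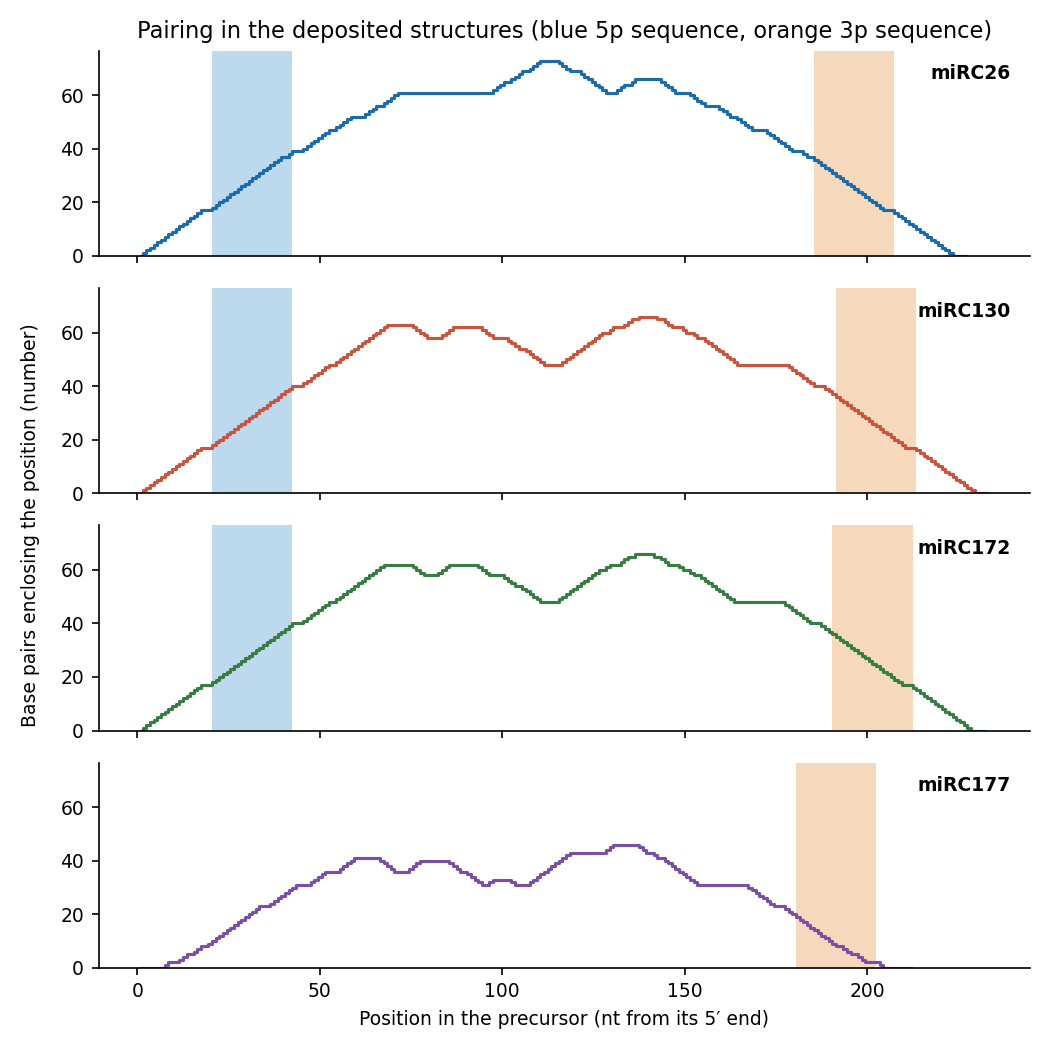
Number of base pairs that enclose each position (vertical axis) along the 4 deposited structures (horizontal axis, nt from the 5′ end), with the 5p sequence in blue and the 3p sequence in orange. The curves of miRC26, miRC130 and miRC172 climb almost without a break through the flank and the 5p sequence, that of miRC177 starts later and stays lower, and all 4 have an irregular part between the arms.

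The arms were far apart. Between them lay 143 nt in miRC26, 149 nt in miRC130 and 148 nt in miRC172, against a median of 40 nt in the 43 other candidates with both arms, of which 6 had more than 143 nt. Of these nucleotides 56.6% were paired in the deposited structure of miRC26, 63.1% in miRC130 and 62.2% in miRC172. In miRC177, 55.8% of the 147 nt between the facing stretch and the 3p sequence were paired. The order of these shares depends on the fold, since RNAfold paired 70.6% in miRC26, 63.1% in miRC130, 60.8% in miRC172 and 61.2% in miRC177. The precursors of the family ranked 35th, 36th, 37th and 42nd in length among the 186, and the median of the others was 121 nt.

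The folding free energies set miRC177 apart from the other members. The deposited energy was -93.0 kcal/mol for miRC26, -101.7 kcal/mol for miRC130, -100.3 kcal/mol for miRC172 and -61.6 kcal/mol for miRC177. The 182 other candidates had a median size of 47.1 kcal/mol, the lowest being 18.33 kcal/mol and the highest 171.23 kcal/mol. By size, miRC130 was 10th, miRC172 11th, miRC26 18th and miRC177 49th of 186. Per 100 nt of precursor the size was 41.0 kcal/mol in miRC26, 43.6 in miRC130, 43.2 in miRC172 and 29.1 in miRC177, against a median of 36.5 in the others. On this scale the members ranked 65th, 50th, 52nd and 127th in the same order. The deposited miRC177 precursor has 11 and 10 nt outside the arms, where the other members have 20 nt on each side. The energies of miRC177 and of the others are therefore not of equal stretches, and energies of equal stretches were not computed. The GC content of the precursors, 37.0 to 38.4%, was close to the median of 37.9% of the others.

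**Figure D5:**
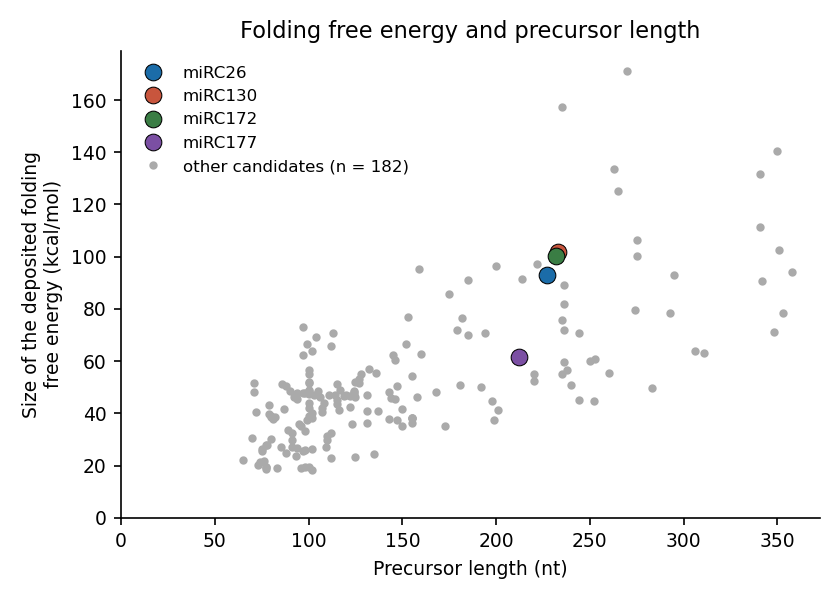
Size of the deposited folding free energy (kcal/mol) against precursor length (nt) for the 4 members and the 182 other candidates, 1 point per precursor. miRC26, miRC130 and miRC172 lie together at 93.0 to 101.7 kcal/mol and 227 to 233 nt, and miRC177 lies lower, at 61.6 kcal/mol and 212 nt.

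The stem of miRC26, miRC130 and miRC172 holds a repeated palindrome. The 5p sequence opens with tccgga, which reads the same on both strands, and a further copy stands just outside it. Each of these 3 precursors held 4 copies, at positions 13, 21, 206 and 214 in miRC130, that is, a pair on each side of the hairpin. The copies on 1 side pair with those on the other in the deposited structure. A palindrome that is fully paired by Watson-Crick pairs recurs on the opposite side, so the 4 copies are not independent. miRC177 held 1 copy, at position 195 inside its 3p sequence. The motif was present in 4 of the 182 other candidates, with 1 copy in each, and in 4.30% of all candidates. As the arms are near complements, the 5p sequence also matched the opposite strand of its own precursor with 2 substitutions in miRC130 and miRC172 and 3 in miRC26.

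No further relatives of the family were found in the table. Each arm sequence was compared without gaps with every place on both strands of the 182 other precursors. With up to 3 substitutions allowed, 0 of the 182 matched, and the closest places had 8 substitutions for either arm, in miRC136, miRC151 and miRC170 for the 5p sequence and in miRC10, miRC129 and miRC146 for the 3p sequence. Of the 189 other distinct arm sequences, 0 shared bases 2 to 8 with the 5p sequence and 0 with the 3p sequence. None of the conserved miRNA sequences that accompany the study shared bases 2 to 8 with either arm sequence. The members and their arm sequences do not appear in the lists of degradome targets that accompany it, so no target can be described.

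Sequences listed at several loci were not rare, and miRC26, miRC130 and miRC172 were set beside them. Besides the 5p sequence, 16 most abundant sequences were listed for more than 1 candidate, 5 of them for more than 2. The lowest identity between precursors that share a most abundant sequence was 94.8% among miRC26, miRC130 and miRC172. Over the 16 others it had a median of 73.5%, from 25.5% to 99.0%. It was higher than among miRC26, miRC130 and miRC172 for 5 of the 16, each of which was listed for 2 candidates. miRC177 does not list the 5p sequence and was left out of this comparison, and its precursor was 82.9% identical to that of miRC26. For the 5 sequences at more than 2 loci the lowest identity was 25.5 to 81.0%, a value that 1 divergent locus can set. By the median over pairs of precursors, these 5 ran from 53.4% to 98.1%, against 96.1% among miRC26, miRC130 and miRC172. The 1 listed for miRC27 and others was above that value. Near-identical precursors at several loci were therefore not particular to the family. The 5 sequences at more than 2 loci had 7 to 49 reads, against 532 for the 5p sequence, whose abundance was part of the choice. In 0 of these 5 was a sequence listed on both arms at all loci, as it was at miRC26, miRC130 and miRC172. Over all 16 others it was so in 6, and this trait was not particular to the family either.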

How the data were processed

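Small RNAs of mixed tissues were sequenced as 1 library. Per the methods, the authors discarded reads of other RNA classes and of known miRNAs, and predicted hairpins in the peach genome with MIREAP and its default settings. The authors deposited unnormalized counts of reads for every precursor and listed arm sequence. The folding free energies in kcal/mol are also as deposited by the authors, whose methods name Mfold 3.2. Counts of a sequence shared by loci came from the same library and are not independent.

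Precursors were aligned globally with Biopython 1.88 (match 2, mismatch -3, gap open -5, gap extension -2), and arm duplexes were folded with RNAcofold of ViennaRNA 2.7.2. Pairing was read from the deposited structures. Shares of reads, except those summed over loci, have 95% Wilson intervals (scipy 1.17.1), which cover counting error only. Python 3.11.15, numpy 2.4.6, pandas 2.3.3 and, for plots, matplotlib 3.10.9 were used. The code was tested on precursors with planted changes. No test between groups was made, because there was 1 library. The members and lists were chosen with earlier results of these data known. All 4 members are named, and other candidates only where they stand next to the family in sequence, reads, pairing or energy. miRC16, miRC17, miRC27, miRC88, miRC144 and miRC162 were named after their values were seen.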

Additional observations from a re-analysis of the deposited data

How the results depend on the processing

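With each distinct sequence counted once, the family had 554 reads in place of 1683 and 4.41% of the reads in place of 10.9%, because a shared sequence then enters once and not at 3 or 4 loci. With the totals of the precursors it had 1714 reads and 10.9%. With gap columns left out, identity was 98.7% for miRC26 and miRC130, 97.8% for miRC26 and miRC172, 94.6% for miRC26 and miRC177, 95.3% for miRC130 and miRC177, and 93.8% for miRC172 and miRC177. The alternative from the 5p to the 3p sequence was added after seeing the data, and it gave 91.7%, 95.3% and 93.3% for miRC177 with miRC26, miRC130 and miRC172, as the unequal flanks are then left out. Refolding with RNAfold gave -88.9 kcal/mol for miRC26, -96.3 for miRC130, -94.6 for miRC172 and -57.1 for miRC177, each smaller in size than the deposited energy, and kept the order of the 4 members by energy. The partner of each base was the same in both folds for 80.6% of bases in miRC26, 98.3% in miRC130, 97.4% in miRC172 and 77.4% in miRC177, and the number of unpaired bases in the arm sequences was the same. The share of the 3p sequence moved by less than its counting interval. Another gap penalty left the identity as it was between miRC26, miRC130 and miRC172 and moved it by under 1 percentage point for miRC177, to 82.1% with miRC26. With up to 5 substitutions allowed, still 0 other candidates resembled the family. The search of a reference genome was not run, because only a gene table was used here. The shares of the 3p sequence rest on 21 or 22 reads, which limits their precision. No paired analysis was possible because the reads form 1 library without groups to compare.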
